A study of Mus musculus with 12 samples.

Results

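The genes described here are the mouse chemokines and chemokine receptors, taken from the count table of a liver fibrosis study by gene name. Every entry named Ccl, Cxcl, Cx3cl, Xcl, Ccr, Cxcr, Cx3cr, Xcr or Ackr followed by a digit was taken, and those with at least 5 reads in at least 3 of the 9 libraries were kept, which left 39 of 68 such entries, of 21936 genes in all. Of these, 23 are ligands and 16 are receptors. All samples were liver RNA from male C57BL/6 mice that were 6 weeks old on arrival and had received carbon tetrachloride (CCl4), a hepatotoxin, at 1 mL/kg into the peritoneum, 2 times a week for 8 weeks. The liver fibrosis group (LFG) was killed at that point without further treatment. The regression group (REG) was then injected with 200 µL of phosphate-buffered saline (PBS) by the tail vein, and the hADMSCs-Exo group with 250 µg of exosomes in the same volume of PBS, 2 times a week for 4 weeks. hADMSCs-Exo are exosomes, small vesicles released by cells, from human adipose mesenchymal stem cells. Each group had 3 libraries, no library of a mouse without CCl4 was analysed here, and LFG differed from the other groups by 4 weeks of age as well as by the injections, so that time and treatment cannot be told apart in a comparison with LFG.

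Chemokines are small secreted proteins that draw leukocytes along a gradient by acting on G protein-coupled receptors on the cell surface. Inflammatory chemokines such as Ccl2 and Cxcl10 are made on injury and recruit monocytes, T cells or neutrophils, homeostatic chemokines such as Cxcl12 and Cxcl13 place cells within tissues, and the atypical receptors (Ackr) bind chemokines and remove them without classical signaling. In injured liver, Ccr2 and Cx3cr1 are known from monocytes and the macrophages that derive from them, Cxcr3 and Cxcr6 from T and natural killer cells, and Cxcr2 from neutrophils.

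The bases before the start of 5 genes are shown. With the library LFG 3 set aside, Cx3cr1 and Cxcr4 were called lower in both REG and hADMSCs-Exo than in LFG, and Cx3cl1 in hADMSCs-Exo. Cxcl1 was lower in hADMSCs-Exo than in LFG in every library. Cxcl10 was called in no comparison and was chosen because it holds interferon-stimulated letters and is one of an interferon-inducible pair with Cxcl9. Other genes called without LFG 3, such as Ccl6, are not shown. Each run is the 250 bases before the RefSeq start in GRCm38.p6, 5′ to 3′ on the gene's own strand. RefSeq starts differ from the deposited gene models for some genes. The model of Cx3cl1 begins at 94772009 and that of Cx3cr1 at 120069879. Part of the Cx3cl1 run and all of the Cx3cr1 run thus lie inside the model of the gene. Capitals mark matches, on either strand, to kappa B letters (GGGA and CC with any 4 bases between), interferon-stimulated letters (GAAA and GAAA with any 2 bases between) and the TATA letters TATAAA.
Cx3cl1, chr8:94771930-94772179, plus strand: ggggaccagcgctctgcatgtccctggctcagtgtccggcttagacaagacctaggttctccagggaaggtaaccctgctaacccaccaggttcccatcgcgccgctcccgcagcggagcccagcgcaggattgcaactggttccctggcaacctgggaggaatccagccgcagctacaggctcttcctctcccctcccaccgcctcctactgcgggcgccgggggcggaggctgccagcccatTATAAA
Cx3cr1, chr9:120068297-120068546, minus strand: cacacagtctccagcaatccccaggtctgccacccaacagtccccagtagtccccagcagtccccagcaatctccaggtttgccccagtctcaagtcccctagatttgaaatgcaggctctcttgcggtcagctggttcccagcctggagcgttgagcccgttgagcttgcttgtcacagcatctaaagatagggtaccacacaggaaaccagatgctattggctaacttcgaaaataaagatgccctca
Cxcr4, chr1:128592300-128592549, minus strand: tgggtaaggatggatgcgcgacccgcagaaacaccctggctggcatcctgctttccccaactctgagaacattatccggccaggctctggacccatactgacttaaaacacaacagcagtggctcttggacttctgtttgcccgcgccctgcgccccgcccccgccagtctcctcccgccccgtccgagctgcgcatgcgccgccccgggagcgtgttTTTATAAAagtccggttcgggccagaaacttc
Cxcl1, chr5:90890995-90891244, plus strand: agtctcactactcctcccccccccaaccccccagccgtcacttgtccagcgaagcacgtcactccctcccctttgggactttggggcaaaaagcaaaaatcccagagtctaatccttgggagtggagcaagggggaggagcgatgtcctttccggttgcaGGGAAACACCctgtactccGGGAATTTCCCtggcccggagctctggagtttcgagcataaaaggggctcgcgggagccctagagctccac
Cxcl10, chr5:92348890-92349139, minus strand: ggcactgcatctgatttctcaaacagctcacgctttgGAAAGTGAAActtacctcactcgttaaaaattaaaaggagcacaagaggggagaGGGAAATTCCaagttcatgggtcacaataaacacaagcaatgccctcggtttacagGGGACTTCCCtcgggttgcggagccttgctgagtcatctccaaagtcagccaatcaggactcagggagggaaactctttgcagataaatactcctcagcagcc
In the RefSeq table, which holds the 250 bases before and 50 bases after each start, 29 of the 39 genes had an entry. A stricter form of the kappa B letters, GGGA and TTTCC with any 1 base between, stood in 0.411% of all 32851 windows and in those of Cxcl1, 71 bases before its start, and Cxcl2, 97 bases before its start. The kappa B letters marked above, of which the stricter form is a special case, were found in 20.7% of all windows and in 10 of the 29 genes, and TATAAA in 13.6% of all windows and in 11 of the 29. The interferon-stimulated letters stood in 3.44% of windows, among them those of Cxcl10, 213 bases before the start, and Cxcl14. TTCNNNGAA, the letters of an interferon-gamma-activated site, stood in 8.3% of windows and in that of Cxcl14. The Cx3cr1 window held none of these letters, which says only that they are not in these bases.

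The library LFG 3 stood apart from the other 8. On the first principal component of all genes, which held 48.7% of the variance, it scored 96.6 where LFG 1 and LFG 2 scored -79.2 and -56.1 and the other 6 libraries lay between -17.6 and 17. Total counts were 13837445 in LFG 3 and 16452202 to 19840917 in the other libraries. Values are given below as CPM, counts scaled to a common library size and normalised for library composition by the TMM method across the 9 libraries. In LFG 3, 31 of the 39 genes were below 50% of the mean CPM of LFG 1 and LFG 2, among them 15 of the 16 receptors, and 26 of the 39 had their lowest value of all 9 libraries there. Among genes with a mean of at least 0.5 CPM in LFG 1 and LFG 2, a value below 50% of that mean in LFG 3 was found for 26 of 33 chemokine and receptor genes (78.8%) and for 25.5% of 12939 genes overall. The share of all genes with their lowest value in LFG 3 was not counted. Markers of macrophages summed to 2781, 2011 and 274 CPM in LFG 1, 2 and 3, all 19 of them being in the table and Gpnmb having no read in LFG 3. Markers of stellate cells and fibroblasts summed to 1536, 1041 and 74.6 CPM in the same libraries. In REG the macrophage sum was 2207, 1181 and 821 CPM, and in hADMSCs-Exo it was 1531, 1359 and 1727 CPM. In whole liver RNA, fewer cells of a type and less RNA per cell cannot be told apart, and the part of these marker changes in the results below was not tested. Comparisons with LFG were therefore run with all 3 LFG libraries and again without LFG 3. Leaving out LFG 3 raises the LFG mean of genes that were low there, and so tilts the comparison towards falls of those genes. For genes that were high in LFG 3 it tilts towards rises. Hepatocyte markers were high in all libraries, at 83922 to 175521 CPM in sum.

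**Figure D1:**
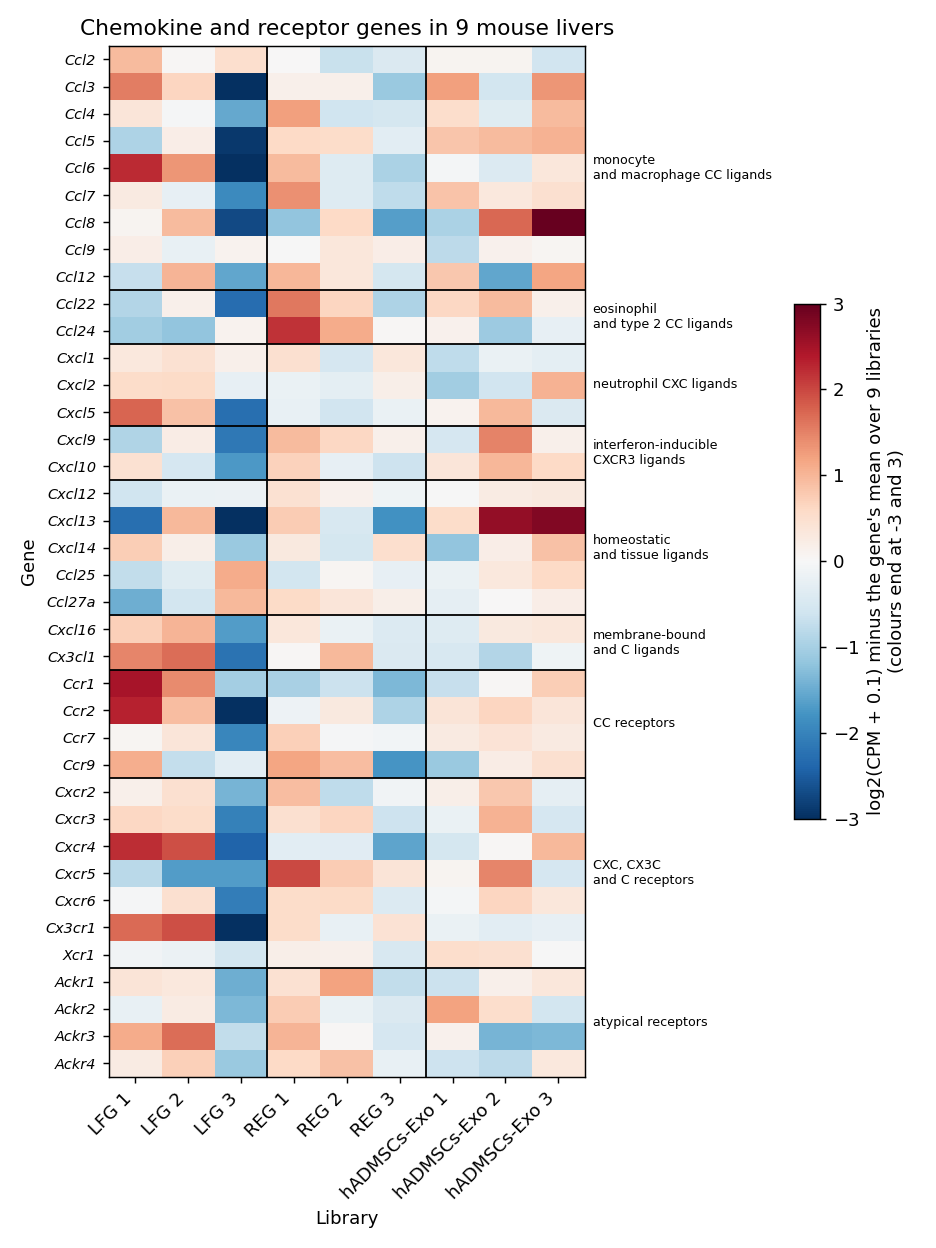
Heat map of 38 of the 39 chemokine and receptor genes (y axis, grouped by role) in the 9 libraries (x axis). Colour is log2(CPM + 0.1) minus the mean of the gene over the 9 libraries, cut at -3 and 3. The LFG 3 column is blue for most genes, and Ccl8 and Cxcl13 are dark red in hADMSCs-Exo 3.

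Levels of different genes were compared as FPKM, the authors' values per kilobase of gene and per library total. Cxcl12, which holds hematopoietic cells and lymphocytes in tissues, had the highest mean over the 9 libraries at 41.8 FPKM (range 29.9 to 54.9), followed by the CC ligands Ccl9 at 27.3 (15.6 to 41.8) and Ccl6 at 22.0 (1.21 to 84.4). These 3 genes took between 67.0% and 84.5% of the reads of all 39 in each library. Ccl5, Cxcl1, Cxcl13 and Cxcl9 had means of 12.9, 12.5, 11.7 and 11.1 FPKM and overlapping ranges, and Cxcl16, a membrane-bound ligand, a mean of 4.22 (0.885 to 8.11). All receptors had lower means. The highest was that of Cxcr4, the receptor of Cxcl12, at 2.79 FPKM (0.200 to 10.1), and the means of others were lower, Ccr2 at 1.38 (0.0321 to 5.47), Cxcr6 at 1.08 (0.150 to 1.51) and Cx3cr1 at 0.810 (0.0160 to 2.25). The ranges of these 4 receptors overlapped, each with a lowest value in LFG 3.

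The genes sit in tight groups on the genome (GRCm38, positions as in the deposited table and in GENCODE M21). Ccl2, Ccl7, Ccl12 and Ccl8 lie on chromosome 11 between 82035571 and 82116799, and Ccl5, Ccl9, Ccl6, Ccl3 and Ccl4 on the same chromosome between 83525778 and 83664683. Cxcl5, Cxcl1 and Cxcl2 share chromosome 5 from 90759360 to 90905938, with Cxcl9 and Cxcl10 at 92321347 to 92348889. Ccl22 and Cx3cl1 are neighbours on chromosome 8 (94745590 to 94782427). Of the receptors, Ccr9, Cxcr6, Xcr1, Ccr1 and Ccr2 lie on chromosome 9 from 123678439 to 124113557. All 39 are annotated as protein coding. The gene models of 12 of them overlap another gene, among them Cxcl16, Ccl6, Cxcl10, Ccl2, Cxcr6, Cx3cr1 and Ccl27a, and since the use of strand in counting is not given in the sources used here, their counts are uncertain by reads of the overlapping gene.

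The 29 entries left out had at most 11 reads in any library, and 10 of them had none. They include the eosinophil chemokine Ccl11, the dendritic and T cell chemokines Ccl19 and Ccl21a, b and c, which are near-identical copies, and the receptors Ccr3, Ccr4, Ccr6, Ccr8 and Ccr10. Closest below the limit were Ccr3, Ccr10 and Xcl1, each with 5 reads or more in 2 libraries. Closest above it were Cxcl2 and Cxcr5, with 5 reads or more in 4 libraries.

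With all 9 libraries, none of the 39 genes passed both thresholds of the study, that is a Benjamini-Hochberg adjusted p under 0.05 with a log2 fold change of 1 or more in size, in any of the 3 comparisons by the quasi-likelihood test of edgeR. DESeq2 and limma with voom also called 0 of them. For hADMSCs-Exo against REG, 0 of the 32 members with enough counts to be tested were called (0.00811% of all 12337 genes tested), and 4 had an unadjusted p under 0.05 (10% of all genes), 3 of them higher (5.34%) and 1 lower (4.69%). For hADMSCs-Exo against LFG the counts were 0 of 33 called (0% of 12489 genes) and 2 at an unadjusted p under 0.05 (5.98%), or 4 with the replicate number as a block. For REG against LFG they were 0 of 31 (0% of 12517) and 1 (11.3%). Groups did not overlap for 2 of the 32 members in the first comparison (15.5% of all genes), 5 of 33 in the second (12.3%) and 2 of 31 in the third (18.9%). Single fold changes are given below on the log2 scale ± standard error (SE). Median log2 fold changes of the members tested were 0.06, 0.04 and 0.14 in these comparisons, where all genes tested had 0.01, -0.06 and -0.07.

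Without LFG 3, 4 of 35 genes tested were called for hADMSCs-Exo against LFG, all of them lower (5.97% of all 12955 genes tested were called, 4.5% lower), and 6 of 36 for REG against LFG (10.7% of 12948), 4 lower (6.94%) and 2 higher (3.81%). For hADMSCs-Exo, 13 members had an unadjusted p under 0.05 (28.5% of all genes), 10 lower (15.7%) and 3 higher (12.8%), and groups did not overlap for 10 that were lower (24.9%) and 6 that were higher (23.9%). For REG there were likewise 13 (37.3%), 9 lower (19.1%) and 4 higher (18.2%), and groups did not overlap for 11 that were lower (29.2%) and 3 that were higher (26.3%). Cx3cr1 and Cxcr4 were called lower in both, which is 2 of the 4 genes of the first list and 33.3% of the second. Both comparisons use the same LFG libraries. Among the 14 receptors tested for hADMSCs-Exo, 10 had a negative and 4 a positive fold change (49.7% of all genes were negative), with a median log2 fold change of -0.54. The 21 ligands had 12 positive and 9 negative values and a median of 0.56, and the median of all genes was 0.00. For REG the medians were -0.11 over 15 receptors and 0.01 over 21 ligands, where that of all genes was -0.01. These comparisons rest on 2 LFG libraries. Over the other tests and normalisations tried without LFG 3, 4 to 10 genes were called for hADMSCs-Exo and 6 to 10 for REG, and 0 of the calls above changed direction. Over the same settings, 395 to 1405 of all 12955 genes were called for hADMSCs-Exo and 1366 to 2428 of 12948 for REG. DESeq2 without LFG 3 also called Ackr3, Ccl5, Ccr1 and Ccr2 for hADMSCs-Exo and Ccl6 and Cxcl5 for REG. Where 1 choice was changed at a time, the edgeR, DESeq2 or voom adjusted p of these genes ran from the value without LFG 3 given below to between 0.928 and 1.00, a range that could not be set for Ccr1 in REG, which was not tested with all libraries. With library totals alone in place of TMM the calls for REG were 9 lower and 1 higher.

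**Figure D2:**
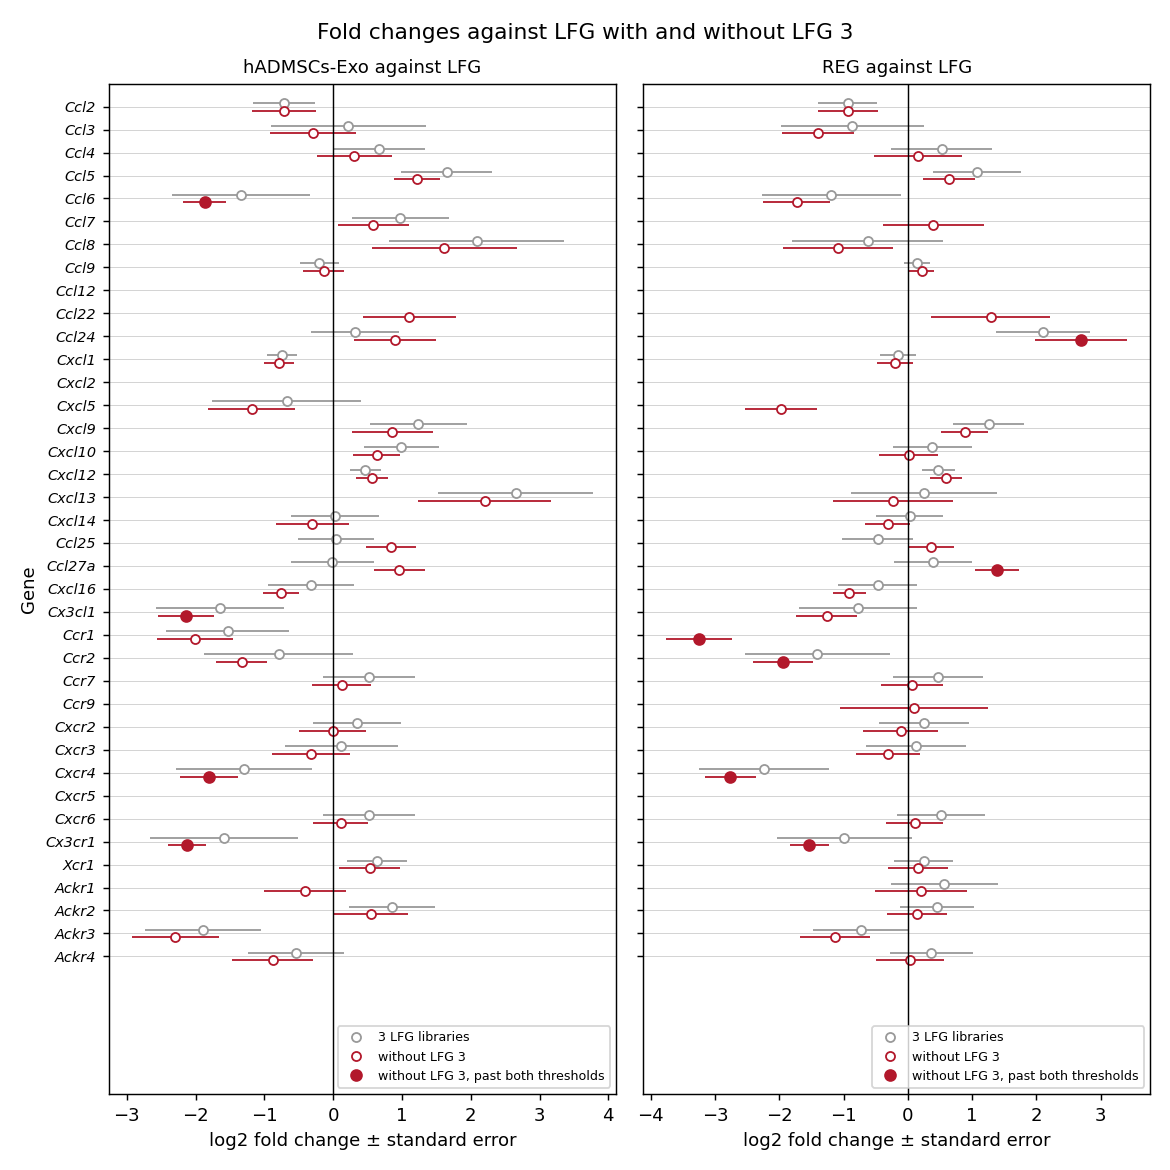
Log2 fold change ± standard error (x axis) of the genes tested and shown in the heat map (y axis, in the order of the heat map) for hADMSCs-Exo against LFG (left) and REG against LFG (right), with all 3 LFG libraries (grey) and without LFG 3 (red). Filled points passed both thresholds. They are Ccl6, Cx3cl1, Cxcr4 and Cx3cr1 on the left and Ccl24, Ccl27a, Ccr1, Ccr2, Cxcr4 and Cx3cr1 on the right.

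Cx3cl1 (fractalkine), a ligand made as a membrane-anchored protein, and its receptor Cx3cr1, which marks monocytes and macrophages, were both high in LFG 1 and LFG 2. Cx3cr1 (GRCm38 chromosome 9, 119901616 to 120069879, minus strand) measured 7.36, 8.65 and 0.0887 CPM in LFG 1, 2 and 3, 3.27, 1.88 and 2.98 CPM in REG and 1.90, 1.75 and 1.83 CPM in hADMSCs-Exo. LFG 1 and 2 lay above all 6 libraries of the other groups and LFG 3 below all of them, while the hADMSCs-Exo values differed little among themselves, with a mean of 1.83 ± 0.0773 (SD, n = 3) against 2.71 ± 0.735 (SD, n = 3) in REG. Without LFG 3, Cx3cr1 fell 4.36-fold in hADMSCs-Exo, a log2 fold change of -2.12 ± 0.27 (SE, edgeR adjusted p = 0.0185), and 2.89-fold in REG, a log2 fold change of -1.53 ± 0.31 (SE, edgeR adjusted p = 0.0232). With LFG 3 the log2 fold changes were -1.59 ± 1.08 (SE, edgeR adjusted p = 0.859) and -0.99 ± 1.05 (SE, edgeR adjusted p = 0.737). The gene model of Cx3cr1 spans several other genes. Cx3cl1 measured 3.45, 3.99 and 0.177 CPM in LFG, 1.23, 2.43 and 0.852 CPM in REG and 0.832, 0.603 and 1.08 CPM in hADMSCs-Exo. It fell 4.41-fold in hADMSCs-Exo without LFG 3, with a log2 fold change of -2.14 ± 0.40 (SE, edgeR adjusted p = 0.0302), and with the replicate number as a block the value was -2.37 (edgeR adjusted p = 0.0639), which did not pass. The value for REG, -1.26 ± 0.47 (SE, edgeR adjusted p = 0.0970), did not pass, and neither did -1.64 ± 0.93 (SE, edgeR adjusted p = 0.825) for hADMSCs-Exo with all libraries. With library totals alone and LFG 3 left out, Cx3cl1 was called for REG as well. In the comparison of hADMSCs-Exo with REG, the log2 fold changes were -0.57 ± 0.32 (SE, edgeR adjusted p = 0.584) for Cx3cr1 and -0.84 ± 0.49 (SE, edgeR adjusted p = 0.589) for Cx3cl1, and the groups overlapped for both.

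Cxcr4 (GRCm38 chromosome 1, 128588199 to 128592293, minus strand), the receptor through which Cxcl12 attracts leukocytes, was also high in LFG 1 and 2, where its ligand was not. Cxcr4 measured 13.2, 10.9 and 0.443 CPM in LFG, 2.22, 2.15 and 0.852 CPM in REG and 1.90, 2.83 and 5.57 CPM in hADMSCs-Exo. It fell 6.77-fold in REG without LFG 3, with a log2 fold change of -2.76 ± 0.40 (SE, edgeR adjusted p = 0.0145), and 3.50-fold in hADMSCs-Exo, with -1.81 ± 0.42 (SE, edgeR adjusted p = 0.0489). All 3 libraries of REG and of hADMSCs-Exo were below LFG 1 and 2. With all libraries the values were -2.23 ± 1.01 (SE, edgeR adjusted p = 0.464) and -1.29 ± 0.99 (SE, edgeR adjusted p = 0.869). For hADMSCs-Exo against REG it had 0.98 ± 0.51 (SE, edgeR adjusted p = 0.552) on the log2 scale. Cxcl12 measured 224, 292 and 300.3 CPM in LFG, 460.4, 367 and 307 CPM in REG and 333, 399.7 and 409.7 CPM in hADMSCs-Exo, the highest LFG library being lower than every library of REG and hADMSCs-Exo. Such higher groups without overlap were found for 4 of 33 members in hADMSCs-Exo against LFG (6.73% of all genes), namely Cxcl12, Ccl5, Ccl7 and Xcr1, and for Cxcl12 alone of 31 in REG against LFG (9.28%). The log2 fold changes of Cxcl12 against LFG were 0.47 ± 0.23 (SE, edgeR adjusted p = 0.806) for hADMSCs-Exo and 0.48 ± 0.25 (SE, edgeR adjusted p = 0.517) for REG, and 0.56 ± 0.23 (SE, edgeR adjusted p = 0.160) and 0.59 ± 0.25 (SE, edgeR adjusted p = 0.130) without LFG 3. None of these passed. Unlike most of the set, Cxcl12 was not low in LFG 3. Ackr3, the atypical receptor that removes Cxcl12, had means of 1.69 ± 1.17 CPM in LFG, 1.03 ± 0.621 CPM in REG and 0.462 ± 0.372 CPM in hADMSCs-Exo (SD, n = 3 each) and a log2 fold change of -2.29 ± 0.63 (SE, edgeR adjusted p = 0.0707) for hADMSCs-Exo against LFG without LFG 3. With all libraries it had -1.89 ± 0.84 (SE, edgeR adjusted p = 0.805).

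**Figure D3:**
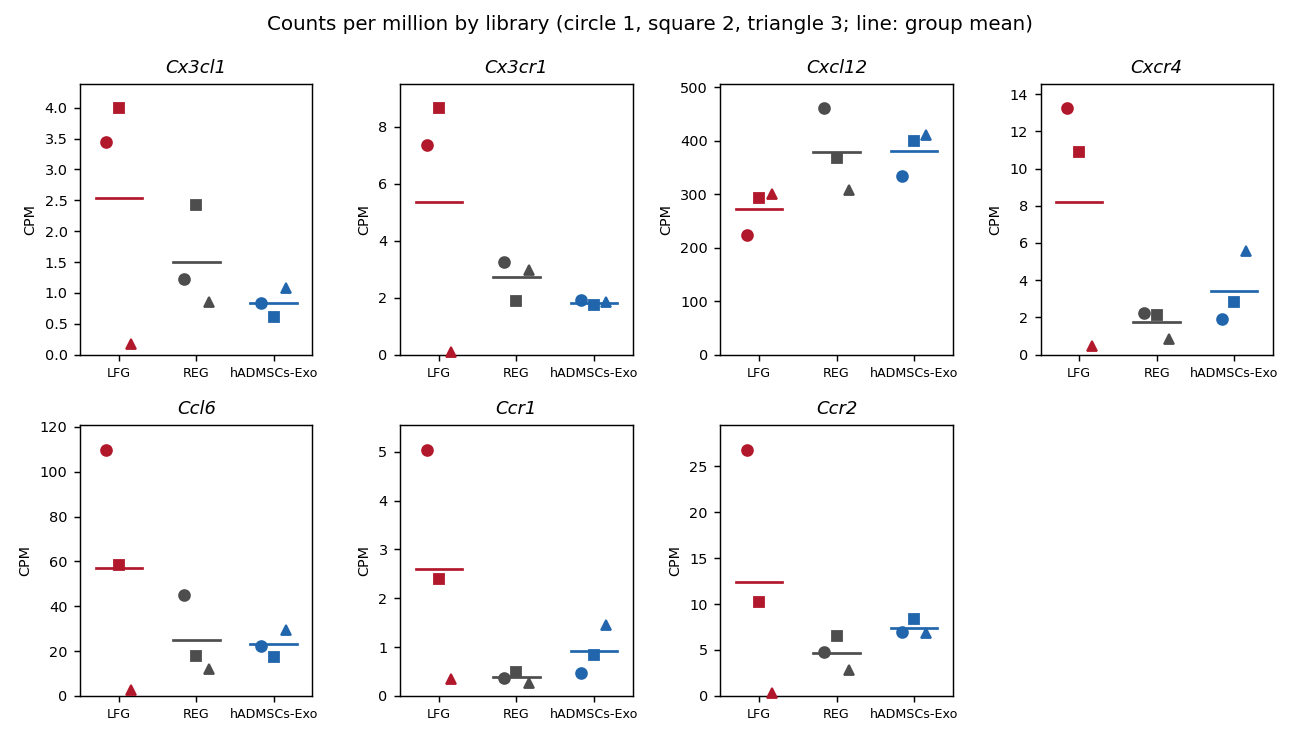
CPM (y axis, from 0) of 7 genes in LFG, REG and hADMSCs-Exo (x axis), with a circle, a square and a triangle for replicates 1, 2 and 3 and a line at the mean of the group. For every gene but Cxcl12 the LFG triangle is the lowest or close to the lowest point, and the LFG circle and square stand above all points of the other groups.

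The CC receptors of monocytes and macrophages were lowest in LFG 3 or in REG. Ccr1, which binds Ccl3, Ccl5, Ccl6 and Ccl9, measured 5.04, 2.38 and 0.355 CPM in LFG, 0.370, 0.496 and 0.266 CPM in REG and 0.476, 0.844 and 1.45 CPM in hADMSCs-Exo. It fell 9.52-fold in REG without LFG 3, a log2 fold change of -3.25 ± 0.51 (SE, edgeR adjusted p = 0.0154), the largest fall among the members tested in that comparison. With all libraries it had too few counts to be tested for REG, and for hADMSCs-Exo it had -2.01 ± 0.56 (SE, edgeR adjusted p = 0.0716) without LFG 3 and -1.54 ± 0.90 (SE, edgeR adjusted p = 0.830) with it. Ccr2, the receptor that brings monocytes out of the bone marrow, measured 26.8, 10.3 and 0.266 CPM in LFG, 4.81, 6.56 and 2.77 CPM in REG and 6.96, 8.32 and 6.89 CPM in hADMSCs-Exo. The LFG libraries differed widely, with a mean of 12.4 ± 13.4 CPM (SD, n = 3), and LFG 1 and 2 lay above all libraries of the other groups. Ccr2 fell 3.85-fold in REG without LFG 3, a log2 fold change of -1.94 ± 0.46 (SE, edgeR adjusted p = 0.0337), and had -1.33 ± 0.37 (SE, edgeR adjusted p = 0.0739) for hADMSCs-Exo, which did not pass. With all libraries the values were -1.41 ± 1.12 (SE, edgeR adjusted p = 0.650) for REG and -0.79 ± 1.08 (SE, edgeR adjusted p = 0.927) for hADMSCs-Exo. Each hADMSCs-Exo library was above each REG library for Ccr2, with a log2 fold change of 0.65 ± 0.31 (SE, edgeR adjusted p = 0.530), and groups without overlap and higher in hADMSCs-Exo occurred for 8.14% of all genes in that comparison and for 2 of the 32 members, Ccr2 and Ccl5.

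Among the 9 CC ligands of monocytes and macrophages, 1 was called by edgeR with TMM and without a replicate block. Ccl6, a ligand of macrophages and neutrophils, measured 109.9, 58.3 and 2.66 CPM in LFG, 45, 17.6 and 11.8 CPM in REG and 22.1, 17.5 and 29.3 CPM in hADMSCs-Exo. LFG 1 had the highest value of the 9 libraries and LFG 3 the lowest. It fell 3.66-fold in hADMSCs-Exo without LFG 3, a log2 fold change of -1.87 ± 0.32 (SE, edgeR adjusted p = 0.0259), and had -1.73 ± 0.53 (SE, edgeR adjusted p = 0.0582) in REG, which missed the threshold. For REG without LFG 3 it passed with DESeq2, at -1.72 (DESeq2 adjusted p = 0.00942), and with library totals alone, at -2.19 (edgeR adjusted p = 0.0153). Ccl6 was also called there with the replicate number as a block. With all libraries the values were -1.34 ± 1.00 (SE, edgeR adjusted p = 0.868) for hADMSCs-Exo and -1.19 ± 1.08 (SE, edgeR adjusted p = 0.692) for REG. Its neighbour Ccl9 was at a similar level in all groups, at 92.4, 69.0 and 87.2 CPM in LFG, 79.7, 103 and 92.5 CPM in REG and 46.5, 88.4 and 84.6 CPM in hADMSCs-Exo, with log2 fold changes of -0.20 ± 0.28 (SE, edgeR adjusted p = 0.934) for hADMSCs-Exo and 0.14 ± 0.20 (SE, edgeR adjusted p = 0.801) for REG against LFG, and -0.14 and 0.22 without LFG 3. Ccl5 (RANTES), made by T and natural killer cells, was highest in hADMSCs-Exo. It measured 5.13, 11.3 and 1.24 CPM in LFG, 15, 14.5 and 7.94 CPM in REG and 17.5, 19.0 and 20.3 CPM in hADMSCs-Exo, with all hADMSCs-Exo libraries above all others. Its log2 fold changes in hADMSCs-Exo were 1.65 ± 0.66 (SE, edgeR unadjusted p = 0.0421, adjusted p = 0.805) against LFG, 1.22 ± 0.33 (SE, edgeR adjusted p = 0.0683) without LFG 3, and 0.60 ± 0.24 (SE, edgeR unadjusted p = 0.0381, adjusted p = 0.479) against REG, none past the adjusted threshold. T and natural killer cell markers summed to 43.7, 42.8 and 41.1 CPM in hADMSCs-Exo, 45.3, 32.2 and 22.2 CPM in REG and 24.3, 33.8 and 4.08 CPM in LFG, and their part in the Ccl5 values was not tested. Ccl2, the main ligand of Ccr2, measured 2.94, 1.5 and 2.13 CPM in LFG, 1.48, 0.882 and 1.07 CPM in REG and 1.55, 1.57 and 0.949 CPM in hADMSCs-Exo. Each REG library was below each LFG library, as for 9.63% of all genes and for no other member, with a log2 fold change of -0.94 ± 0.45 (SE, edgeR adjusted p = 0.483), and -0.94 ± 0.47 (SE, edgeR adjusted p = 0.183) without LFG 3. In LFG 3 it stood at 2.13 CPM, inside the range of the other LFG libraries, although Ccr2 was at 0.266 CPM there. Ccl3, Ccl4, Ccl7 and Ccl12 had group means between 0.194 and 1.80 CPM. Their adjusted p-values were at least 0.115 wherever they were tested by edgeR with TMM and no block, with all libraries or without LFG 3. With library totals alone and LFG 3 left out, Ccl3 was called lower in REG than in LFG.

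**Figure D4:**
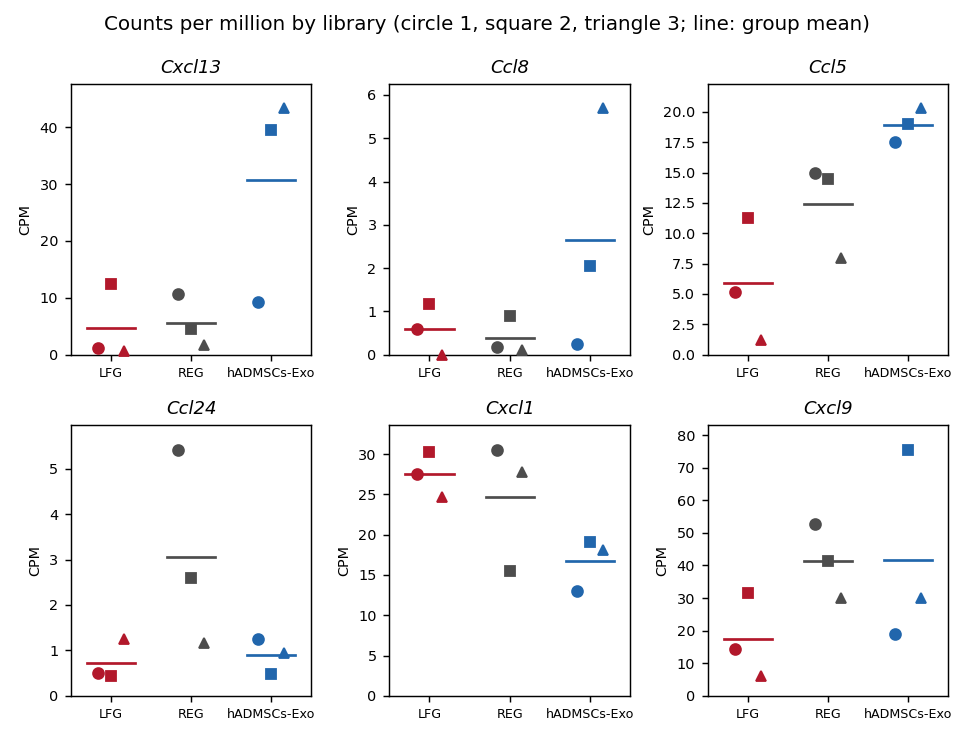
CPM (y axis, from 0) of 6 ligands in LFG, REG and hADMSCs-Exo (x axis), with a circle, a square and a triangle for replicates 1, 2 and 3 and a line at the mean of the group. hADMSCs-Exo 2 and 3 stand far above the other 7 libraries for Cxcl13, REG 1 and 2 stand highest for Ccl24, and the 3 hADMSCs-Exo points are highest for Ccl5.

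The largest positive fold changes of hADMSCs-Exo over REG were those of Ccl8 and Cxcl13, and neither passed the adjusted threshold. Cxcl13, which draws B cells into follicles, measured 1.22, 12.4 and 0.621 CPM in LFG, 10.7, 4.47 and 1.70 CPM in REG and 9.21, 39.5 and 43.3 CPM in hADMSCs-Exo. In hADMSCs-Exo 1 it lay inside the REG range, and in hADMSCs-Exo 2 and 3 it was far above the other 7 libraries. Its log2 fold changes were 2.45 ± 0.72 (SE, edgeR unadjusted p = 0.00897, adjusted p = 0.407) against REG and 2.66 ± 1.13 (SE, edgeR unadjusted p = 0.0511, adjusted p = 0.805) against LFG. Without LFG 3 the value against LFG was 2.20 ± 0.96 (SE, edgeR adjusted p = 0.183), and 2.18 (edgeR adjusted p = 0.0390) with the replicate number as a block, past both thresholds. Ccl8, a monocyte ligand on chromosome 11, had the same split at 0.238, 2.05 and 5.69 CPM in hADMSCs-Exo, with 0.589, 1.16 and 0 CPM in LFG and 0.185, 0.882 and 0.107 CPM in REG, and a log2 fold change of 2.74 ± 1.07 (SE, edgeR unadjusted p = 0.0333, adjusted p = 0.466) against REG. B cell markers summed to 30.0, 9.94 and 8.22 CPM in hADMSCs-Exo 1, 2 and 3, to 35.9, 16.4 and 3.55 CPM in LFG and to 12.2, 10.9 and 4.69 CPM in REG. In hADMSCs-Exo and LFG most of their spread came from 1 gene, Cr2, which stood at 21.2, 0.482 and 0.253 CPM in hADMSCs-Exo and at 32.5, 12.5 and 0.443 CPM in LFG. The other 5 markers, taken apart after the values were seen, summed to 8.74, 9.46 and 7.97 CPM in hADMSCs-Exo, 3.41, 3.94 and 3.10 CPM in LFG and 9.55, 9.76 and 4.0 CPM in REG, with little difference between the hADMSCs-Exo libraries that split for Cxcl13. Cxcr5, the receptor of Cxcl13, was at 0.238, 0.784 and 0.126 CPM in the same libraries and 1.17, 0.441 and 0.320 CPM in REG, and its counts were too low to be tested in any comparison.

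Ccl24 and Ccl27a were the 2 members called higher in REG against LFG without LFG 3. Ccl24 (eotaxin-2), an eosinophil chemokine, measured 0.504, 0.443 and 1.24 CPM in LFG, 5.42, 2.59 and 1.17 CPM in REG and 1.25, 0.482 and 0.949 CPM in hADMSCs-Exo. REG 1 and 2 had the highest values and REG 3 lay inside the range of the other groups. Its log2 fold change for REG against LFG was 2.11 ± 0.73 (SE, edgeR unadjusted p = 0.0237, adjusted p = 0.392), and without LFG 3 it rose 6.49-fold, with 2.70 ± 0.72 (SE, edgeR adjusted p = 0.0433). For hADMSCs-Exo against REG it was -1.77 ± 0.61 (SE, edgeR unadjusted p = 0.0192, adjusted p = 0.430). Ccl27a, an epithelial chemokine known from skin, measured 2.19, 4.21 and 12.3 CPM in LFG, 9.24, 8.05 and 7.03 CPM in REG and 5.11, 6.27 and 7.21 CPM in hADMSCs-Exo, and LFG 3 had the highest value of all. With LFG 3 left out it rose 2.61-fold in REG, with a log2 fold change of 1.38 ± 0.34 (SE, edgeR adjusted p = 0.0365), against 0.39 ± 0.61 (SE, edgeR adjusted p = 0.823) with all libraries, and 1.01 (edgeR adjusted p = 0.0555) with library totals alone and LFG 3 left out. Its counts are uncertain, since Il11ra1 overlaps it on the other strand and near-identical copies (Ccl27b and unplaced entries of Ccl27a) are in the table. Ccl25, a thymus and gut chemokine, was also highest in LFG 3 at 8.07 CPM, against 2.19 and 2.83 CPM in LFG 1 and 2, and Ccl22 had group means of 0.204 ± 0.224, 0.726 ± 0.600 and 0.647 ± 0.201 CPM in LFG, REG and hADMSCs-Exo (SD, n = 3 each).

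Cxcl1, a neutrophil chemokine, was lower in every hADMSCs-Exo library than in every LFG library, at 13.0, 19.1 and 18.1 against 27.5, 30.3 and 24.7 CPM, with 30.6, 15.5 and 27.8 CPM in REG. The log2 fold change of hADMSCs-Exo against LFG was -0.74 ± 0.22 (SE, edgeR unadjusted p = 0.0114, adjusted p = 0.805), and without LFG 3 it was -0.79 ± 0.21 (SE, edgeR adjusted p = 0.0681). Groups without overlap and lower in hADMSCs-Exo than in LFG occurred for 1 of 33 members and for 5.52% of all genes. The LFG values lay close together, LFG 3 included. Neutrophil markers summed to 48.5, 76.5 and 79.7 CPM in hADMSCs-Exo and 37.4, 24.3 and 11.8 CPM in LFG, higher in hADMSCs-Exo where Cxcl1 was lower, and their part in the Cxcl1 values was not tested. In REG the neutrophil sum was 81.6, 22.5 and 13.3 CPM. The neutrophil receptor Cxcr2 had means of 1.04 ± 0.618, 1.26 ± 0.804 and 1.37 ± 0.562 CPM in LFG, REG and hADMSCs-Exo (SD, n = 3 each). Cxcl2, which shares the kappa B letters shown above for Cxcl1, had at most 9 reads in a library and was not tested, and Cxcl5 had a log2 fold change of -1.98 ± 0.56 (SE, edgeR adjusted p = 0.0508) for REG against LFG without LFG 3, which missed the threshold, and too few counts to be tested there with all libraries.

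The interferon-inducible ligands Cxcl9 and Cxcl10 and their receptor Cxcr3, which acts on T and natural killer cells, did not pass by edgeR without a replicate block, with all libraries or without LFG 3. Cxcl9 measured 14.5, 31.5 and 6.03 CPM in LFG, 52.7, 41.4 and 29.9 CPM in REG and 19.1, 75.6 and 30.0 CPM in hADMSCs-Exo. The hADMSCs-Exo values spread from below to above every REG library. Its log2 fold changes were 1.23 ± 0.70 (SE, edgeR adjusted p = 0.825) for hADMSCs-Exo and 1.26 ± 0.56 (SE, edgeR adjusted p = 0.458) for REG against LFG, and 0.86 ± 0.59 (SE, edgeR adjusted p = 0.369) and 0.89 ± 0.36 (SE, edgeR adjusted p = 0.120) without LFG 3. Cxcl10, whose promoter letters are shown above, had means of 4.59 ± 3.18, 6.00 ± 3.02 and 9.41 ± 2.14 CPM, and Cxcr3 means of 1.12 ± 0.820, 1.26 ± 0.543 and 1.27 ± 0.835 CPM, in LFG, REG and hADMSCs-Exo (SD, n = 3 each). Cxcl16 and its receptor Cxcr6, a marker of liver-resident T cells, both had their lowest value in LFG 3. Cxcl16 measured 17.8, 21.8 and 3.28 CPM in LFG, 13.6, 9.32 and 8.04 CPM in REG and 8.26, 13.1 and 13.6 CPM in hADMSCs-Exo, and its log2 fold change for REG against LFG without LFG 3, -0.91 ± 0.25 (SE, edgeR adjusted p = 0.0480), was past the adjusted p but under the limit on fold change. Cxcr6 measured 1.77, 2.55 and 0.355 CPM in LFG, 2.71, 2.76 and 1.33 CPM in REG and 1.72, 2.89 and 2.34 CPM in hADMSCs-Exo, with log2 fold changes of 0.11 ± 0.40 (SE, edgeR adjusted p = 0.881) for hADMSCs-Exo and 0.11 ± 0.45 (SE, edgeR adjusted p = 0.876) for REG against LFG without LFG 3, and 0.52 and 0.52 with it. LFG 1 and 2 lay inside the range of REG.

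The remaining members did not pass in any comparison. Xcr1, a receptor of cross-presenting dendritic cells, had means of 0.887 ± 0.157, 1.06 ± 0.275 and 1.42 ± 0.296 CPM in LFG, REG and hADMSCs-Exo (SD, n = 3 each). Nearly all of the dendritic cell marker sum, 41.0 to 424 CPM, came from Cd74 and H2-Ab1, which other antigen-presenting cells also express. The other 5 markers, taken apart after the values were seen, summed to 11.1, 9.98 and 3.73 CPM in LFG, 8.81, 5.74 and 5.97 CPM in REG and 7.61, 9.34 and 8.85 CPM in hADMSCs-Exo. Ccr7, which guides dendritic cells and naive T cells to lymph nodes, had 0.820 ± 0.573, 1.17 ± 0.429 and 1.24 ± 0.0757 CPM. Ackr2, which removes inflammatory CC chemokines, had 1.75 ± 0.908, 2.41 ± 1.18 and 3.25 ± 1.83 CPM. Ackr1, Ackr4 and the gut-homing receptor Ccr9 had group means between 0.247 and 1.02 CPM, where 3 reads are worth 0.126 to 0.266 CPM, so that these levels rest on few reads. Cxcl14, an epithelial chemokine, had means of 6.01 ± 3.41, 6.14 ± 2.09 and 6.30 ± 3.90 CPM, with a spread inside each group larger than the differences between them.

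Genes that act with chemokines but are named otherwise were followed as a list of 37, of which 35 were tested, covering G protein subunits, receptor kinases, regulators of G protein signaling, the ligands Pf4, Mif and Rarres2 and transcription factors, among others. With all libraries 0 of 35 passed in any comparison by edgeR, and 2 had an unadjusted p under 0.05 in each comparison, as did 10% of all genes in the comparison of hADMSCs-Exo with REG, 5.98% in that with LFG and 11.3% in REG against LFG. The smallest p-values for hADMSCs-Exo against REG were those of Prex1, a Rac activator downstream of chemoattractant receptors, with a log2 fold change of 0.54 ± 0.18 (SE, edgeR adjusted p = 0.428), Rgs16 with -1.67 ± 0.59 (SE, edgeR adjusted p = 0.434) and the chemerin gene Rarres2 with -0.38 ± 0.20 (SE, edgeR adjusted p = 0.560). Irf1 and Dpp4, the peptidase that clips the ends of several chemokines, had the smallest against LFG, with log2 fold changes of 0.73 and 0.65 in hADMSCs-Exo (edgeR adjusted p = 0.805 for both) and 0.89 and 0.64 in REG (adjusted p = 0.354 and 0.402), followed by Nfkbia at -0.62 for REG. Without LFG 3, 3 of 35 were called for hADMSCs-Exo (5.97% of all genes), all lower (4.5%), and 7 of 35 for REG (10.7%), 6 lower (6.94%) and 1 higher (3.81%). Rgs2, which dampens G protein signaling, fell in both, with log2 fold changes of -2.20 ± 0.25 (SE, edgeR adjusted p = 0.0142) and -2.02 ± 0.32 (SE, edgeR adjusted p = 0.0154). Grk5, a kinase that desensitises G protein-coupled receptors, and the chemerin receptor Cmklr1 fell in hADMSCs-Exo with -1.43 ± 0.25 (SE, edgeR adjusted p = 0.0266) and -1.20 ± 0.25 (SE, edgeR adjusted p = 0.0381). Prex1 fell in REG with -1.28 ± 0.18 (SE, edgeR adjusted p = 0.0145) and Rarres2 rose there with 1.25 ± 0.22 (SE, edgeR adjusted p = 0.0169). With all libraries Rarres2 had 0.20 ± 0.58 (SE, edgeR unadjusted p = 0.735) in REG. It had 5126 reads in LFG 3 against 2456 and 2239 in LFG 1 and 2, so its rise depended on leaving out LFG 3.

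Summed over the 16 receptors, the level was 93.1, 67.5 and 6.83 CPM in LFG 1, 2 and 3, 51.3, 37.4 and 24.1 CPM in REG and 37.7, 45 and 42.2 CPM in hADMSCs-Exo. The library with the highest receptor sum, LFG 1, also had the highest macrophage marker sum, and LFG 3 had the lowest of both. This was not particular to macrophages. LFG 1 and LFG 3 also had the highest and lowest sums of stellate cell and fibroblast markers (1536 and 74.6 CPM). The cholangiocyte sums were 223 and 66.1 CPM there, but they are not separate from the macrophage sums. Their largest gene, Spp1, is on both lists and had 4104 reads in LFG 1 and 460 in LFG 3. Without LFG 3, 3 of 19 macrophage markers were called lower for hADMSCs-Exo (4.5% of all genes) and 5 of 19 for REG (6.94%), and 8 and 5 of 12 stellate cell and fibroblast markers. So were 2 and 3 of the 7 cholangiocyte markers tested. For hADMSCs-Exo against REG, 0 of 12 stellate cell and fibroblast markers were called (0.00811% of all genes), all 12 fold changes were negative and 7 had an unadjusted p under 0.05 by edgeR (4.69% of all genes were lower at that p). Over the 9 libraries the markers of sinusoidal endothelium summed to 97.4 to 404 CPM and those of cholangiocytes to 66.1 to 223 CPM. The part of these cells in the fall of Cx3cr1, Cxcr4, Ccr1, Ccr2, Ccl6 and Cx3cl1 was not tested. Summed over the 23 ligands, of which Cxcl12 is the largest, the level was lowest in LFG 3 at 455 CPM and highest in REG 1 at 751 CPM.

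**Figure D5:**
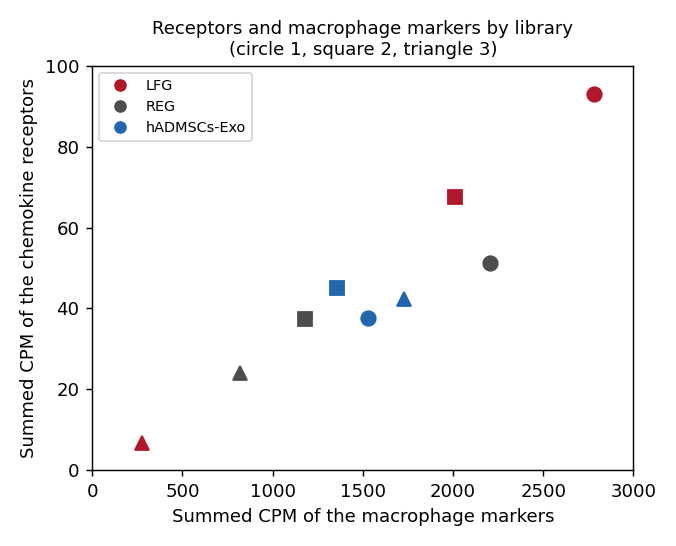
Summed CPM of the 16 chemokine receptors (y axis, from 0) against the summed CPM of 19 macrophage markers (x axis, from 0) in the 9 libraries, in red for LFG, grey for REG and blue for hADMSCs-Exo, with a circle, a square and a triangle for replicates 1, 2 and 3. LFG 3 stands at the lower left, at 6.83 and 274 CPM, and LFG 1 at the upper right, at 93.1 and 2781 CPM.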

How the data were processed

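Total liver RNA was sequenced in 3 libraries each of LFG, REG and hADMSCs-Exo; the 3 samples of the hADMSCs group of the 12 in the series were not analysed here. The columns headed MSC_E were read as hADMSCs-Exo, and no other column of sample values was left unused (0). Per the labels and the study's methods, RNA was extracted with Trizol, libraries were made with the NEBNext Ultra kit and sequenced on an Illumina NovaSeq. The submitters' processing notes name cutadapt 1.15, HISAT2 2.0.5, HTSeq 0.9.1, DESeq 1.30.0 and GRCm38. The use of strand in counting is not given in the sources used here. The table deposited by the authors holds raw read counts per gene and FPKM, which the authors scaled by gene length and by the counts of the library. FPKM recomputed from the counts differed from the deposited values by a relative 9.19e-07 at most. Nothing beyond the labels says that replicates are separate animals, and no pair of replicates differed by less than the sampling noise, so that p-values measure the spread between these samples. Library totals were 13837445 to 19840917 counts, and 3 reads are worth 0.126 to 0.266 CPM, which covers counting error only.

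Members and lists were chosen with earlier results of these data known. Counts were fitted with edgeR 4.0.16 (R 4.3.3, TMM, filterByExpr, quasi-likelihood test) on the 6 libraries of each comparison over all genes, and p-values were adjusted over all genes tested by Benjamini-Hochberg. A call needed an adjusted p under 0.05 and a log2 fold change of 1 or more in size. DESeq2 1.42.0, limma 3.58.1 with voom, other filters, normalisations and leaving out each library were alternatives. Those without LFG 3 combined with another setting, and library totals alone, were chosen after seeing the data. The scripts were tested on simulated data. All members with an unadjusted p under 0.05 with all libraries, or called against LFG without LFG 3, and the 8 ligands and 5 receptors of highest mean FPKM were described with every library's value, and for the pathway list those of the 3 smallest p in a comparison. The values of 1 member and of 1 pathway gene are not reported here, though the counts and sums include them. Ccl2, Cxcr5 and Ccl25 were given by library after their values were seen. Markers of macrophages, stellate cells and fibroblasts, T and natural killer, B and dendritic cells, neutrophils, sinusoidal endothelium, cholangiocytes and hepatocytes were summed as CPM. The main fits took no pairing, and none is stated in the labels. Deviations from group means in same-numbered replicates of hADMSCs-Exo and LFG had correlations across genes of 0.101, 0.308 and 0.179. A fit with the replicate number as a block was run only as an alternative. Promoter sequences are from RefSeq on GRCm38.p6. Figures were drawn with matplotlib 3.10.9.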

Additional observations from a re-analysis of the deposited data

How the results depend on the processing

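With all libraries 0 members were called in the 3 comparisons under DESeq2, voom, RLE, the other filters and the replicate block. For hADMSCs-Exo against REG, the 4 members at an unadjusted p under 0.05 became 2 with at least 10 counts in every library or with all 9 libraries in one fit, and 2 to 8 with 1 library left out (8 without hADMSCs-Exo 1, 7 without REG 2, 2 without hADMSCs-Exo 3 or REG 3). Of all genes, 1170 of 11500 and 484 of 12760 had such a p in the first 2 settings. With 1 library left out, 617 to 1348 of 12506 to 12568 genes did, and 1266 of 12549 without hADMSCs-Exo 1. For hADMSCs-Exo against LFG, the 2 became 5 with DESeq2, 4 with no filter, all 9 libraries or the replicate block, 1 with library totals, and 1 to 13 with 1 library left out (1 without hADMSCs-Exo 2 or 3, 4 without LFG 2, 13 without LFG 3), and calls then ranged from 0 to 4. Of all genes, 1055 had such a p with DESeq2, 948 with no filter, 1243 with all 9 libraries, 714 with the block and 673 with library totals. With 1 library left out, 377 to 3688 did, and 0 to 773 were called. Here 12489 to 16328 genes were tested. For REG against LFG, the 1 became 3 with DESeq2 or all 9 libraries, 4 with no filter, 2 with voom, library totals or the replicate block, and 0 to 13 with 1 library left out (0 without REG 1 or LFG 1, 2 without REG 2, 3 without LFG 2, 13 without LFG 3), and calls ranged from 0 to 6. Of all genes, 1755 had such a p with DESeq2, 2009 with all 9 libraries and 1546 with no filter. It was 1481 with voom, 1423 with library totals and 1078 with the block. With 1 library left out, 584 to 4830 did, and 0 to 1391 were called. Here 12517 to 16343 genes were tested. Same-numbered replicates of REG and of hADMSCs-Exo or LFG had correlations from -0.20 to 0.41, and the block changed no call there with all libraries. Without LFG 3 it added calls of Ccl6, at -1.46 (edgeR adjusted p = 0.00128), and Cxcl9, at 1.16 (edgeR adjusted p = 0.0212), for REG against LFG. Together with leaving out LFG 3, hADMSCs-Exo against LFG gave 8 calls and 14 members at an unadjusted p with DESeq2, 4 and 14 with RLE, 4 and 14 with the replicate block, and 10 and 13 with library totals. REG against LFG gave 8 and 13, 6 and 13, 8 and 12, and 10 and 14 in the same order. In that order, 1336, 769, 395 and 1405 of all 12955 genes were called for hADMSCs-Exo. For REG it was 1794, 1366, 1656 and 2428 of 12948. At an unadjusted p under 0.05 there were 3783, 3702, 3309 and 3992 genes for hADMSCs-Exo and 4903, 4827, 4886 and 5433 for REG. Library totals moved the median of all genes to -0.18 (hADMSCs-Exo) and -0.27 (REG) against LFG, and to -0.32 and -0.43 without LFG 3, so that falls under them are to be read against these shifts. Of the settings of single members 621 kept direction and side of the threshold, 9 passed it in addition and 37 changed sign, none of the latter past the threshold. The cause was not tested. The log2 fold change of Ccl27a for hADMSCs-Exo against LFG was 0.54 with voom, 0.0115 with at least 10 counts, 0.0056 with no filter, 0.0486 with library totals and 0.32 with the block. That of Ccl6 for hADMSCs-Exo against REG was 0.11 with voom and 0.0753 with the block, and that of Ccl9 for REG against LFG -0.0812 with library totals. With the block and voom, Ccr2 had 0.15 and 0.12 for hADMSCs-Exo against LFG. For hADMSCs-Exo against REG, Cxcl12 had -0.000195 with RLE and -0.000165 with DESeq2, and Cxcl9 -0.000477 with DESeq2, -0.20 with voom and -0.18 with the block. With 1 library left out, log2 fold changes of REG against LFG ranged from -0.0274 to 1.38 for Ccl27a, -1.98 to 0.24 for Ccl8, -0.32 to 0.11 for Cxcl1 and -0.59 to 2.57 for Cxcl13. Those of hADMSCs-Exo against LFG ranged from -0.42 to 0.96 for Ccl27a, -0.35 to 0.0650 for Ccl9, -1.33 to 0.45 for Ccr2 and -0.76 to 0.11 for Cxcl16. Those of hADMSCs-Exo against REG ranged from -0.46 to 0.66 for Ccl6, -0.13 to 0.19 for Cxcl12, -0.76 to 0.35 for Cxcl9 and -0.24 to 0.21 for Cxcr6.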
